A study of Mus musculus with 2 samples.

Results

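The glycolytic enzymes described here are 10 genes that code for the enzymes converting glucose to lactate: *Hk2*, *Aldoa*, *Aldoc*, *Tpi1*, *Gapdh*, *Pgk1*, *Eno1*, *Pkm*, *Ldha* and *Ldhb*. They were taken by name from the count table, which held all 10 of them among its 15046 genes. The counts come from single-cell RNA sequencing (scRNA-seq) of cultured neural stem/progenitor cells (NSPCs) from the subventricular zone (SVZ) of C57/Bl6 male mice aged 6 to 8 weeks. All cells belonged to 1 stable line transduced with a PLIN2-GFP retrovirus, in which the CAG promoter drives perilipin 2, a coat protein of lipid droplets (LDs), with green fluorescent protein (GFP) at its N-terminus. Sorting into 384-well plates took the 25% of cells with the lowest and the 25% with the highest GFP signal, the low and high PLIN2-GFP NSPCs, with no other treatment. Each of 2 plates held both categories, and of the 304 cells plate 1 gave 95 low and 84 high ones and plate 2 gave 72 and 53. As both plates carry the same line, the spread between them may be technical and does not measure the variation between lines or mice.

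Glycolysis breaks glucose down to pyruvate in the cytosol and yields ATP and NADH. Hexokinase traps glucose in the cell, aldolase splits the phosphorylated sugar into trioses, and the enzymes from glyceraldehyde-3-phosphate dehydrogenase to pyruvate kinase harvest the energy. Lactate dehydrogenase then interconverts pyruvate and lactate. Proliferating stem and progenitor cells are known for a strong glycolytic flux. Several steps are served by isoforms from different genes, and in the brain aldolase C is the isoform typical of astroglia, whereas aldolase A is found in most tissues. Many of these genes are known targets of the hypoxia-inducible factors, which bind DNA at sites with the core ACGTG or GCGTG.

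In SORT-seq, primers with a well barcode and a unique molecular identifier (UMI) tag the 3′ ends of polyadenylated transcripts, so a value counts molecules. The cells held 1170 to 34630 UMIs, with a median of 10774. High PLIN2-GFP NSPCs were deeper, with medians of 11709 UMIs against 7856 in low cells on plate 1 and 14729 against 11955 on plate 2. Low and high cells lay in 8 rows of wells each and shared 0 rows, so an effect of the row and one of the category cannot be told apart. The plates share 59 well barcodes among the kept cells, as they were made with the same barcode set. Markers of the labelled cell type were all found, since 7 of 7 NSPC markers were in the table and summed to between 6716 and 6858 CPM (counts per 1000000 UMIs) in the 4 combinations of plate and category. Of the markers of microglia, 0 of 7 were in the table, and the 2 of 5 endothelial and mural markers in it summed to at most 13.1 CPM. The 5 of 8 neuron markers in the table summed to between 426 and 569 CPM, and the 3 of 7 markers of the oligodendrocyte lineage to between 3272 and 3613 CPM, and their part in the results was not tested.

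Promoter windows of 5 members are shown because the comparisons below turn on these genes. *Aldoc* was higher and *Pgk1* lower in high PLIN2-GFP NSPCs, *Aldoa* is the partner isoform of *Aldoc*, and *Ldha* and *Hk2* were lower in the high category on both plates without passing the test. The windows are those of RefSeq on build GRCm38.p6, with 250 bases before and 50 after the start of transcription, and for genes with several starts the most upstream one is printed. Capitals mark every ACGTG on either strand, read on the minus strand as CACGT, and where both overlap the run CACGTG stands in capitals. The windows lie at chr11:78322823-78323122 (plus strand) for *Aldoc*, chr7:126800398-126800697 (minus) for *Aldoa*, chrX:106186850-106187149 (plus) for *Pgk1*, chr7:46845554-46845853 (plus) for *Ldha* and chr6:82774405-82774704 (minus) for *Hk2*.
Aldoc: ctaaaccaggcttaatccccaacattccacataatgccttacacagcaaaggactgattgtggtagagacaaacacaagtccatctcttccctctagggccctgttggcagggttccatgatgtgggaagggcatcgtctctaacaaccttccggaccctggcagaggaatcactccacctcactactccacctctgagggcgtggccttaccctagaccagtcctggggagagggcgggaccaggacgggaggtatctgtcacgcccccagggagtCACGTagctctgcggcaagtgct
Aldoa: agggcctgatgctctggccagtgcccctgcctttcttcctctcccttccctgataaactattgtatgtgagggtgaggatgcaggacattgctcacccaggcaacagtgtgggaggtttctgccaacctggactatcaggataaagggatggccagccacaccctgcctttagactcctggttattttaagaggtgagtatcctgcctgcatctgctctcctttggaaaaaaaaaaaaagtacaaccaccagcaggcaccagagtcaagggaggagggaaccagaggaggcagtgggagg
Pgk1: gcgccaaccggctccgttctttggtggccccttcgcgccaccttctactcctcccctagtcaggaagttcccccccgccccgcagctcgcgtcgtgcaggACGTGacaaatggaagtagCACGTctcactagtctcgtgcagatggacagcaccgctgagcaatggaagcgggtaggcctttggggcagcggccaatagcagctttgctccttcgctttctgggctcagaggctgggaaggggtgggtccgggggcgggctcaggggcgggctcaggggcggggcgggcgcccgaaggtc
Ldha: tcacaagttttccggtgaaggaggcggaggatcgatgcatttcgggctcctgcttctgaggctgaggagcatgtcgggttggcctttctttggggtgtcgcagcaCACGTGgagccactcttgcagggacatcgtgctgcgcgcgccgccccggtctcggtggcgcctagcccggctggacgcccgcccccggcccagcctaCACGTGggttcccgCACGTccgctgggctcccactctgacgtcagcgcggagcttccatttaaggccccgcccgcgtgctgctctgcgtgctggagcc
Hk2: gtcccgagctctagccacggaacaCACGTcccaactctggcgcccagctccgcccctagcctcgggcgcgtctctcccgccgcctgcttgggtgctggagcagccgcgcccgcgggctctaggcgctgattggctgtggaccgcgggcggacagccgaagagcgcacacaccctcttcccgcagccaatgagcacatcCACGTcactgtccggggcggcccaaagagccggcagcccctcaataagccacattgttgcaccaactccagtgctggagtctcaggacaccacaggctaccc
Matches were counted per strand, here and over all windows, so a CACGTG run counts on both strands. The *Ldha* window held 5 matches, 2 on the plus and 3 on the minus strand, with each of its CACGTG runs counted on both. The windows of *Pgk1* and *Hk2* held 2 each, that of *Aldoc* 1 and that of *Aldoa* 0, although the other windows of *Aldoa* held 1 each. Over all members, 7 of 10 had a match in at least 1 window, and *Eno1*, *Tpi1* and *Ldhb* had none. Counted by window, 8 of the members' 17 windows held a match. Of all 32851 promoter windows, 19.6% held at least 1 match and 0.183% held 5 or more. Only ACGTG was searched, so GCGTG is neither marked nor counted. A match is a description of the letters and was not tested for binding.

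The members differed widely in abundance. Over all cells of a plate, *Pkm*, the pyruvate kinase gene, led with 2626 CPM on plate 1 and 2630 on plate 2. Divided by transcript length, the level of *Pkm* was 1081 ± 1.2 CPM per kilobase (mean ± SD, n = 2 plates). *Aldoa* followed with 597 ± 62.9, *Pgk1* with 406 ± 112, *Eno1* with 365 ± 83.2 and *Aldoc* with 230 ± 46.1 on that scale. *Ldha* stood at 182 ± 45.8, *Ldhb* at 119 ± 46.2, *Tpi1* at 103 ± 47.9, *Gapdh* at 32.9 ± 2.3 and *Hk2* at 2.79 ± 0.33. As 3′ tags count a transcript once whatever its length, the scale per kilobase lowers long transcripts such as *Hk2* and *Aldoc* and changes the order. Undivided, *Aldoa* had 925 ± 97.5 CPM, *Eno1* 741 ± 169, *Pgk1* 740 ± 205, *Aldoc* 640 ± 128 and *Ldha* 330 ± 83.2. *Tpi1* had 166 ± 76.9 CPM, *Ldhb* 156 ± 60.2, *Gapdh* 46.8 ± 3.2 and *Hk2* 15.4 ± 1.8. Between *Pgk1* and *Eno1*, *Aldoc* and *Ldha*, *Ldha* and *Ldhb*, and *Ldhb* and *Tpi1*, the means per kilobase differed by less than the sum of their SDs. The plates differed most in *Tpi1*, which had 220 CPM on plate 1 and 111 on plate 2, a ratio of 1.98. On GRCm38, *Eno1* lies on chromosome 4, *Tpi1*, *Gapdh* and *Ldhb* on chromosome 6, *Ldha* on chromosome 7 and *Pkm* on chromosome 9, and the positions of the other 4 are given below.

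The low level of *Gapdh* and part of that of *Eno1* rest on how reads were divided between near-identical genes. *Gapdh* had 163 UMIs in all and reached 1 UMI in 23 of the 304 cells (7.6%), and 81.8% of its values above 0 were not whole numbers. In the table, 51 further genes match the end of its transcript at 95% identity or more, and they held 1670 UMIs, of which *Gm2546* alone held 437. The *Gapdh* row thus carries 8.9% of the UMIs of its family, whereas the summed family reached 1 UMI in 78.0% of cells. For *Eno1*, enolase 1, 1 such copy was in the table, *Eno1b*, with 1172 UMIs against 2591 in the *Eno1* row. The other 8 members had no copy in the table. The summed family came to a whole number in 53.6% of cells for *Gapdh* and in 12.2% for *Eno1*, so the sums may still miss UMIs that were divided with further genes. Values of *Gapdh* and *Eno1* are therefore uncertain with and without their copies, and the sums are given beside the single rows.

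The first comparison asks whether glycolytic transcripts follow the PLIN2-GFP signal of a cell, which the study uses as a reporter of LDs. In high PLIN2-GFP NSPCs *Aldoc* rose 1.30-fold and *Pgk1*, which codes for phosphoglycerate kinase, fell to 0.822 of its level in low PLIN2-GFP NSPCs, whereas the other 8 members did not pass the test. The 4 sums of counts, 1 per plate and category, were tested in edgeR (quasi-likelihood) with plate as the blocking factor. A gene is called at an adjusted p under 0.1 (Benjamini-Hochberg over the 8348 genes tested). All 10 members could be tested, and 1 was called higher and 1 lower, beside 0.886% of all genes called higher and 1.26% called lower (2.14% in either direction). The median log2 fold change was -0.11 over the members and -0.0015 over all genes tested, and 7 of 10 members had a negative value.

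*Aldoc*, on the plus strand of chromosome 11 of GRCm38 from 78322968 to 78327781, was counted at 680 CPM (scaled with TMM factors, as are all group levels below) in low and 798 in high NSPCs of plate 1, and at 457 and 671 CPM on plate 2. High exceeded low on both plates, while the high sum of plate 2 lay below the low sum of plate 1, so the categories overlapped across plates. The fitted log2 fold change in edgeR was 0.38 (standard error 0.09, adjusted p = 0.00764), and within plates it was 0.23 and 0.56. The call was lost without the plate block (adjusted p = 0.996) and in DESeq2 with the block (adjusted p = 0.335), and held in cells thinned to 5000 UMIs (log2 fold change 0.53, adjusted p = 0.00162). The log2 fold change ranged from 0.11 to 0.69 when any of the 4 sums was left out without the block, and none of these fits called the gene.

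*Aldoa*, the general aldolase, on chromosome 7 from 126795234 to 126800751, did not pass the test. The annotation holds a further gene of that name upstream, from 126800790 to 126809108, whereas the table has 1 *Aldoa* row. Its level was 1114 CPM in low and 946 in high NSPCs of plate 1, and 891 and 857 CPM on plate 2. High lay below low on both plates by little, and the log2 fold change, -0.15 ± 0.08, was not called (adjusted p = 0.525 by edgeR).

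*Pgk1*, whose enzyme carries out the first ATP-yielding step and which lies on chromosome X from 106187100 to 106203699, fell from 1063 to 791 CPM on plate 1 and from 630 to 584 CPM on plate 2. The plates differed more than the categories, and the difference was mostly that of plate 1. In edgeR this gave a log2 fold change of -0.28 ± 0.09 (standard error) and an adjusted p of 0.0850, with -0.43 and -0.11 within plates 1 and 2. *Pgk1* was not called without the plate block (adjusted p = 0.996), in DESeq2 (adjusted p = 0.541), with scaling to library size alone (adjusted p = 0.195) or in thinned cells (adjusted p = 0.150). In fits with no block its sign turned, to a log2 fold change of 0.13, once the low sum of plate 1 was left out, and it was -0.62 once that of plate 2 was.

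*Hk2*, hexokinase 2, on chromosome 6 from 82725025 to 82774454, had the lowest counts. Plate 1 gave 26.3 CPM in low and 9.72 CPM in high NSPCs, and plate 2 gave 19.4 and 9.0 CPM. Both low sums lay above both high sums. They rest on 20 and 16 UMIs against 10 and 7, and the log2 fold change, -1.28 ± 0.43, was not called (adjusted p = 0.112 by edgeR).

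*Ldha*, the lactate dehydrogenase subunit that prevails in glycolytic tissue, was at 445 CPM in low and 365 in high NSPCs of plate 1, and at 300.0 and 253 CPM on plate 2 (log2 fold change -0.27, adjusted p = 0.329 by edgeR). *Ldhb*, the subunit that prevails in oxidative tissue such as heart, was at 196 and 208 CPM on plate 1 and at 101 and 131 on plate 2 (log2 fold change 0.20, adjusted p = 0.716 by edgeR). Neither passed the test, and their values went in opposite directions on both plates.

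*Pkm* held 2857 CPM in low and 2563 in high NSPCs of plate 1, and 2601 and 2777 CPM on plate 2. Its direction differed between the plates, and the log2 fold change, -0.03 ± 0.07, was the smallest in size of the 10 (adjusted p = 0.940 by edgeR). *Tpi1*, triose-phosphate isomerase, was at 232 and 221 CPM on plate 1 and at 98.4 and 130 CPM on plate 2 (log2 fold change 0.11, adjusted p = 0.889 by edgeR). *Eno1* was at 948 and 829 CPM on plate 1 and at 618 and 653 CPM on plate 2 (log2 fold change -0.07, adjusted p = 0.875 by edgeR), and with *Eno1b* added its log2 fold change was -0.16 (adjusted p = 0.470). The *Gapdh* row went from 43.4 to 55.4 CPM on plate 1 and from 74.1 to 15.4 CPM on plate 2. These opposite moves rest on a few cells, and the log2 fold change of -0.68 was not called (adjusted p = 0.225 by edgeR). Summed with its copies, *Gapdh* had -0.26 on the log2 scale (edgeR, adjusted p = 0.217).

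**Figure D1:**
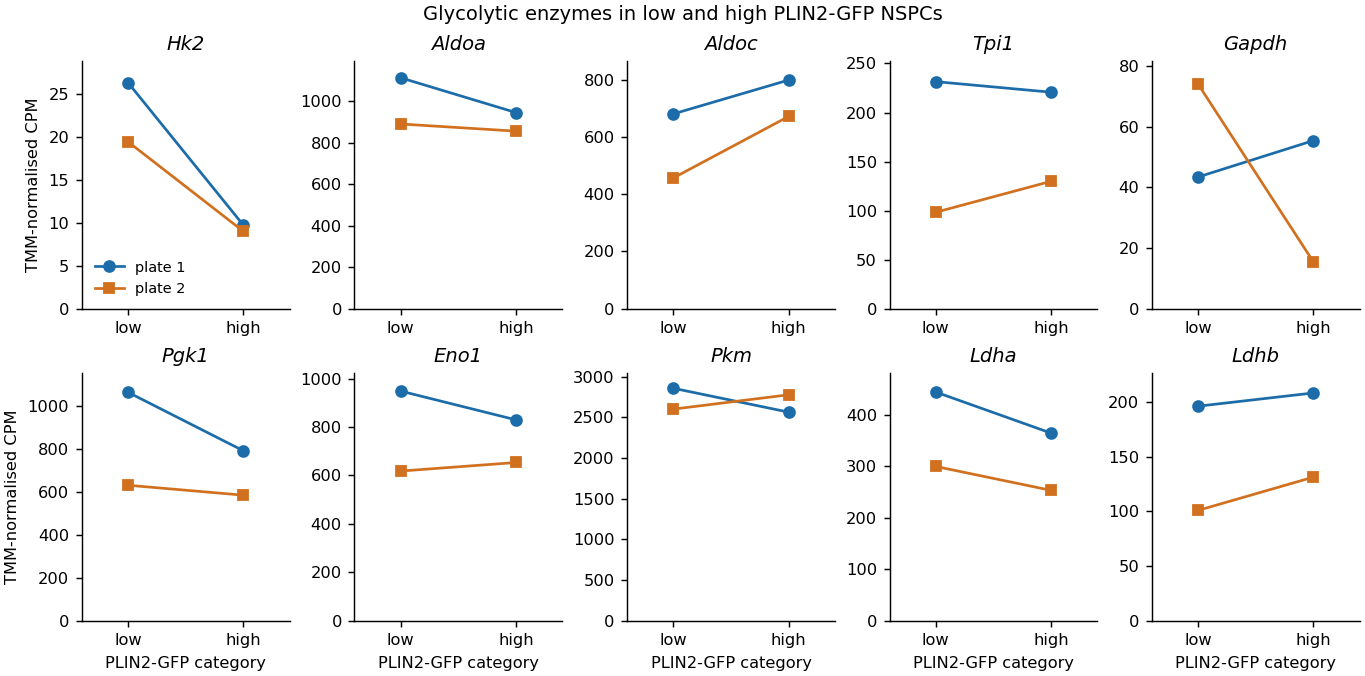
Levels of the 10 glycolytic enzymes (TMM-normalised CPM, linear axes from 0) in low and high PLIN2-GFP NSPCs, with 1 line per plate (circles plate 1, squares plate 2). *Aldoc* climbs on both plates, from 680 to 798 and from 457 to 671 CPM, *Pgk1*, *Ldha* and *Hk2* descend on both, and *Gapdh*, *Eno1*, *Pkm* and *Tpi1* go in opposite directions on the plates.

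The aldolase isoforms were then compared as shares, which cancel depth and normalisation. *Aldoc* made up 37.9% of the summed *Aldoa* and *Aldoc* counts in low PLIN2-GFP NSPCs of plate 1 (95% exact binomial interval 35.3% to 40.5%) and 45.8% in high ones (43.4% to 48.1%). On plate 2, the shares were 33.9% (31.1% to 36.7%) and 43.9% (41.1% to 46.8%). Both high shares exceeded both low shares, and within each plate the intervals, which cover counting error only, did not overlap. The difference was 8.96 ± 1.56 percentage points (mean ± SD, n = 2 plates), and an exact two-sided permutation test over the 4 shares gave p = 0.33, the smallest that 2 plates allow.

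The same shift was seen cell by cell. Nearly all cells held UMIs of both aldolases, namely 87 of 95 and 66 of 72 low NSPCs, and 82 of 84 and 52 of 53 high NSPCs, by plate. On plate 1, *Aldoc* outnumbered *Aldoa* in 16.8% of the low but 34.5% of the high cells, and on plate 2 in 18.1% against 39.6%. In cells thinned to 5000 UMIs, which left 72 low and 73 high NSPCs of plate 1 and 64 and 50 of plate 2, these shares were 13.9% and 38.4%, and 21.9% and 44.0%. The thinned cells held a mean of 3.08 UMIs of *Aldoc* in the low and 4.36 in the high category of plate 1, and of 2.27 and 3.74 on plate 2.

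**Figure D2:**
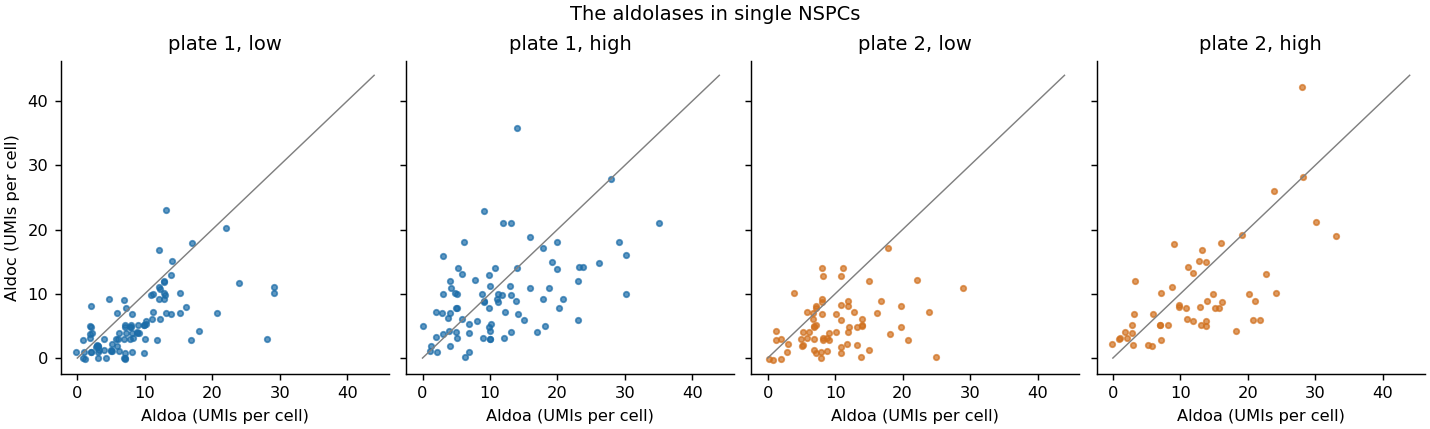
UMIs of *Aldoa* (x axis) and *Aldoc* (y axis) in single NSPCs, 1 point per cell with a small random offset, for each plate and PLIN2-GFP category; on the grey line both are equal. Above the line lie 16.8% and 18.1% of the low cells and 34.5% and 39.6% of the high cells of plates 1 and 2.

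Of the other isoform pairs, *Ldhb* made up 30.6% of *Ldha* plus *Ldhb* in low and 36.3% in high NSPCs of plate 1, and 25.2% and 34.1% on plate 2. The difference was 7.35 ± 2.28 percentage points (n = 2 plates, exact permutation p = 0.33). On both plates the binomial intervals overlapped, with 26.5% to 34.9% against 32.4% to 40.4% on plate 1. *Hk2* made up 18.3% of *Hk1* plus *Hk2* in low and 8.47% in high NSPCs of plate 1, and 19.0% and 9.21% on plate 2, a difference of -9.86 points (exact permutation p = 0.33). These shares rest on 7 to 20 UMIs of *Hk2*, and the binomial intervals overlapped on both plates, with 11.6% to 26.9% against 4.14% to 15.0% on plate 1 and 11.3% to 29.1% against 3.78% to 18.1% on plate 2. Taken as a mean over cells, the difference was -11.2 ± 7.34 points (SD, n = 2 plates). *Hk1*, the hexokinase of most brain cells, was itself at 99.8 ± 24.4 CPM in low and 96.9 ± 11.5 in high NSPCs.

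**Figure D3:**
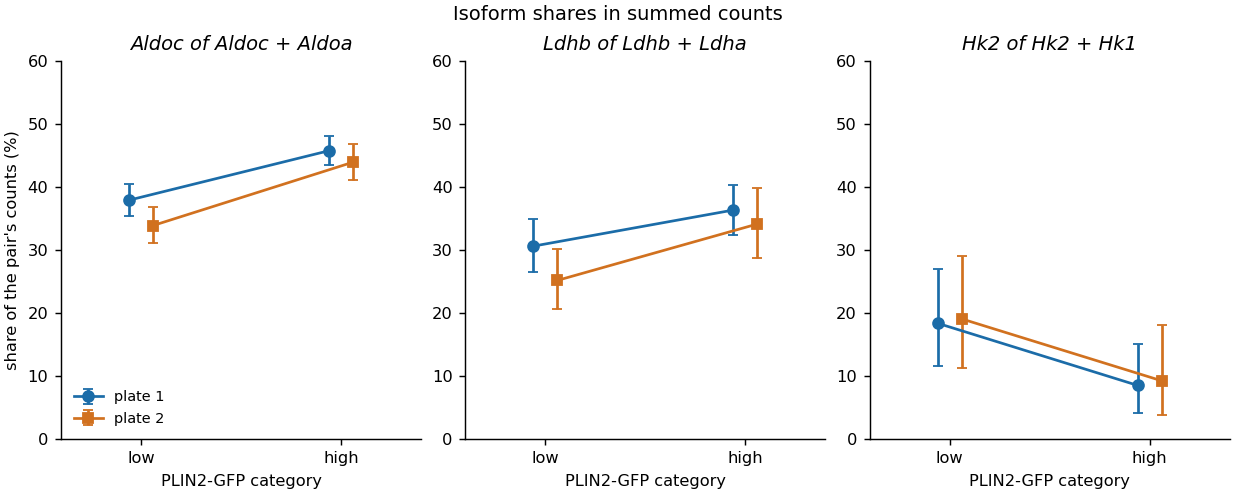
Share of the first-named isoform in the counts of its pair (%, y axis) in low and high PLIN2-GFP NSPCs, with 1 line per plate and bars for the 95% exact binomial interval. The *Aldoc* share climbs from 37.9% to 45.8% and from 33.9% to 43.9%, and the *Hk2* share falls from 18.3% to 8.47% and from 19.0% to 9.21%.

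Around the members, the rest of the pathway was read from lists of other glycolytic enzymes, regulators and transporters. Of 11 other glycolytic enzymes in the table, 6 could be tested and 1 was called, *Pgam1*, the mutase between *Pgk1* and enolase. *Pgam1* fell from 745 to 593 CPM on plate 1 and from 506 to 373 CPM on plate 2 (log2 fold change -0.38, standard error 0.10, adjusted p = 0.0171 by edgeR). Of 10 regulators tested, *Pdk1*, whose kinase keeps pyruvate out of the mitochondrial citrate cycle, was the 1 called, with 82.9 and 36.0 CPM on plate 1 and 43.7 and 25.7 CPM on plate 2 (log2 fold change -1.04, adjusted p = 0.0151 by edgeR). Of 6 transporter genes tested, 0 were called by edgeR and 1 had an unadjusted p under 0.05. DESeq2 called 0, but gave an adjusted p to 418 genes alone. The most abundant were *Bsg*, the chaperone of lactate carriers (log2 fold change -0.30, adjusted p = 0.418), and *Mpc2* and *Mpc1*, which form the mitochondrial pyruvate carrier (-0.15 and 0.17, adjusted p = 0.856 and 0.829).

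Among 15 tested genes of the hypoxia response, 3 were lower and 0 higher in high PLIN2-GFP NSPCs, beside the 1.26% of all genes called lower, and their median log2 fold change was -0.42. *Ero1l*, an oxidase of the endoplasmic reticulum, had 63.1 and 25.3 CPM in low and high cells of plate 1 and 41.3 and 11.6 CPM on plate 2 (log2 fold change -1.48, adjusted p = 0.000379 by edgeR). *Bnip3*, which takes part in mitophagy, had 92.1 and 44.7 CPM, and 47.4 and 19.3 CPM (log2 fold change -1.12, adjusted p = 0.00322). *Egln1*, an oxygen-sensing prolyl hydroxylase, fell from 287 to 153 CPM on plate 1 but stood at 215 and 211 CPM on plate 2 (log2 fold change -0.48, adjusted p = 0.0371). These calls, with those of *Pgam1* and *Pdk1*, depended on the fit. Without the plate block 0 of the listed genes were called, and 1 of all genes was. DESeq2 gave an adjusted p to 418 genes and called 0 of the listed genes. *Ero1l*, *Bnip3*, *Egln1* and *Pdk1* had no adjusted p there and so could not be called. Their log2 fold changes in DESeq2 were -1.55, -1.15, -0.47 and -0.995, and *Pgam1* had -0.38 (adjusted p = 0.371). In thinned cells *Egln1* (adjusted p = 0.00784) and *Ero1l* (adjusted p = 0.0501) were called by edgeR, and *Pdk1*, *Pgam1* and *Bnip3* were not (adjusted p = 0.181, 0.322 and 0.412).

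On both plates the summed level of astrocyte markers was higher in the high category. The 10 markers summed to 1726 and 1691 CPM (without TMM factors) in low and to 2234 and 2128 in high NSPCs. Among them *Slc1a3*, a glutamate transporter, was called higher (log2 fold change 0.24, adjusted p = 0.0856 by edgeR), a call lost without the plate block (adjusted p = 0.996), in DESeq2 (adjusted p = 0.513) and in thinned cells (adjusted p = 0.237). *Slc1a2*, a further glutamate transporter, went from 101 to 81.7 CPM on plate 1 and from 60.7 to 93.9 CPM on plate 2, in opposite directions. *Gfap*, the defining filament of astrocytes, had 1 UMI in the 4 sums, and *Aqp4* had between 3 and 5 in each. The part of the astrocyte markers in the *Aldoc* difference was not tested.

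The second comparison sets the members against the cell cycle, using the phases that the authors assigned to the cells from S and G2/M scores. With the plate block, several members were lower relative to all UMIs outside G1 phase, and the calls depended on the fit. From G1 to G2/M, 6 of 10 members fell and none rose, beside 7.40% of 7650 genes called lower and 9.01% called higher (16.4% in all), and the median log2 fold change was -0.41 over the members and -0.015 over all genes. From G1 to S, 5 of 10 fell and none rose, beside 5.19% called lower and 7.56% called higher (12.7% in all), with a median of -0.22 over the members. Without the block 0 members were called in either comparison, beside 653 of all genes in G2/M and 444 in S. DESeq2 called 2 members in G2/M and 0 in S, beside 317 and 207 of all genes. Together the 10 members took 0.749%, 0.684% and 0.640% of the UMIs in G1, S and G2/M cells of plate 1, and 0.666%, 0.564% and 0.515% on plate 2. These are levels relative to all UMIs, and a lower one need not mean fewer molecules per cell. On plate 1 the members held 5751 UMIs in 81 G1 cells, 3148 in 41 S cells and 3861 in 57 G2/M cells. Plate 2 gave 3490 in 51, 3285 in 36 and 2720 in 38 cells in the same order. Numbers per cell were not tested.

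On plate 1 *Aldoc* was at 875, 658 and 682 CPM in G1, S and G2/M, and on plate 2 at 723, 568 and 421 CPM. G1 was the highest phase on both plates. By edgeR, *Aldoc* changed from G1 to G2/M by -0.54 ± 0.11 (log2 scale, adjusted p = 0.0010), and from G1 to S by -0.37 ± 0.11 (adjusted p = 0.0316).

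*Aldoa* was at 1154, 1014 and 880 CPM on plate 1 and at 1094, 765 and 826 CPM on plate 2 in the same order of phases. It fell in S (log2 fold change -0.35, adjusted p = 0.0203 by edgeR) and in G2/M (-0.40, adjusted p = 0.00499). The share of *Aldoc* in both aldolases showed no common order of phases, with 43.1%, 39.3% and 43.6% on plate 1 and 39.8%, 42.6% and 33.8% on plate 2.

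*Ldhb* showed the steepest fall of the called members, from 259 CPM in G1 to 163 in S and 170 in G2/M on plate 1 and from 162 to 103 and 90.4 CPM on plate 2. Its log2 fold changes were -0.66 in S (standard error 0.17, adjusted p = 0.0124 by edgeR) and -0.69 in G2/M (standard error 0.17, adjusted p = 0.00494). *Ldha* was at 401, 420 and 391 CPM on plate 1 and at 340, 244 and 267 CPM on plate 2 and was not called in either comparison (adjusted p = 0.506 and 0.505).

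*Pkm* fell from 2946 CPM in G1 to 2578 in S and 2531 in G2/M on plate 1, and from 3062 to 2663 and 2465 CPM on plate 2. Its log2 fold changes were -0.20 in S (adjusted p = 0.0819 by edgeR) and -0.26 in G2/M (adjusted p = 0.0102). *Eno1* fell by 0.38 in S and by 0.45 in G2/M on the log2 scale (adjusted p = 0.0131 and 0.00225 by edgeR), and with *Eno1b* added by 0.39 and 0.49 (adjusted p = 0.00905 and 0.000576). *Tpi1* was called in G2/M alone, with a log2 fold change of -0.43 (adjusted p = 0.0913), and had -0.23 in S (adjusted p = 0.457).

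*Pgk1*, with 949, 935 and 857 CPM on plate 1 and 733, 542 and 588 CPM on plate 2, was not called in S (log2 fold change -0.21, adjusted p = 0.232 by edgeR) or in G2/M (-0.22, adjusted p = 0.181). *Hk2* had 17.8, 26.4 and 10.2 CPM on plate 1 and 16.4, 20.6 and 5.90 CPM on plate 2, so that S was the highest and G2/M the lowest phase on both plates. Its log2 fold change from S to G2/M was -1.51 ± 0.58 (adjusted p = 0.193 by edgeR), on 12 and 12 UMIs in S and 6 and 3 in G2/M. Between S and G2/M, 0 of 10 members were called by edgeR and 1, *Hk2*, had an unadjusted p under 0.05, beside 4.85% of all genes called, 2.76% higher and 2.09% lower. DESeq2 called 0 of the 9 members to which it gave an adjusted p there. The *Gapdh* row was called in none of the 3 phase comparisons and reversed its sign between the plates.

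**Figure D4:**
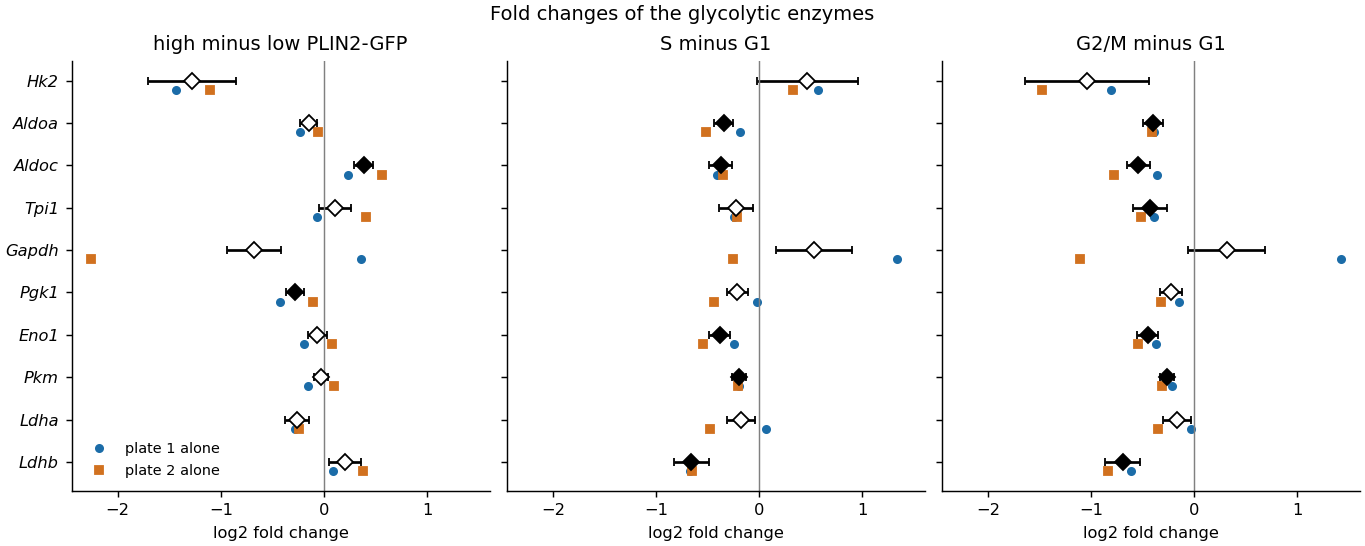
Log2 fold changes (x axis) of the 10 members, named at the left, between PLIN2-GFP categories and between cell cycle phases. Diamonds with bars give the fitted value ± standard error, filled where the adjusted p is under 0.1, and circles and squares give plates 1 and 2 alone; *Aldoc* is the 1 filled diamond above 0, at 0.38, and the 11 filled diamonds of both phase panels lie below 0.

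Several of the surrounding genes fell with the members outside G1. *Pgam1* fell by 0.32 in S and by 0.38 in G2/M on the log2 scale (adjusted p = 0.0866 and 0.0279 by edgeR), and *Gpi1*, the isomerase after hexokinase, by 0.66 and 0.74 (adjusted p = 0.0197 and 0.00570). Of 15 hypoxia response genes 7 were lower in G2/M and 5 in S, and none was higher, beside the 7.40% and 5.19% of all genes called lower. DESeq2 called 1 of the 15 in G2/M and 0 in S. Among them *Vegfa*, the vascular growth factor, fell by 1.13 in G2/M and by 0.58 in S (adjusted p = 7.29e-05 and 0.0381). Of the 5 astrocyte markers that could be tested 3 were lower in each comparison. The fall was not confined to these lists. Of 2 oligodendrocyte lineage markers tested, 2 were lower in each, and DESeq2 called 2 in G2/M and 1 in S. Of 6 transporter genes tested, 3 were lower in G2/M and 1 in S. Of 7 NSPC markers, 1 was lower in each comparison and 1 was higher in S. Over all lists other than the members, the calls went from 22 to 11 in G2/M and from 16 to 2 in S without the block, and to 5 and 2 by DESeq2.

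Cells in G1 had a median of 9049 UMIs and 14.0% mitochondrial counts, against 13560 UMIs and 11.6% in S and 11333 UMIs and 11.9% in G2/M, and the part of these differences was not tested. After thinning to 5000 UMIs, 3 of 9 members tested were called lower in S and 3 in G2/M, beside 390 and 619 of 4269 genes called in either direction. The calls were those of *Aldoa*, *Aldoc* and *Ldhb* in S and of *Aldoa*, *Aldoc* and *Pkm* in G2/M. *Eno1* lost its calls in S (log2 fold change -0.30, adjusted p = 0.222 by edgeR) and in G2/M (-0.21, adjusted p = 0.374). *Pkm* lost its call in S (adjusted p = 0.231), and *Ldhb* and *Tpi1* theirs in G2/M (adjusted p = 0.170 and 0.788).

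The third comparison asks whether the PLIN2-GFP difference depends on the phase. In cycling cells, here S and G2/M together, *Aldoc* rose 1.57-fold in high PLIN2-GFP NSPCs, from 524 to 763 CPM on plate 1 and from 374 to 632 CPM on plate 2. In edgeR this was 0.65 ± 0.11 on the log2 scale (adjusted p = 0.0010), and *Aldoc* was the 1 member of 9 tested that was called, beside 0.721% of 6935 genes called higher and 0.548% called lower (1.27% in all). In G1, *Aldoc* went from 850 to 928 CPM on plate 1 and from 642 to 806 CPM on plate 2, with a log2 fold change of 0.21 that was not called (adjusted p = 0.699). The difference between both effects was 0.43 ± 0.16 and was not called either (adjusted p = 0.796 by edgeR), so they were not shown to differ. Without the plate block, *Aldoc* was not called in cycling cells (adjusted p = 0.281).

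Split into single phases, *Aldoc* was higher in the high category in all 6 pairs of sums. It had 872 and 954 CPM in low and high cells in G1, 523 and 778 CPM in S, and 558 and 767 CPM in G2/M on plate 1. On plate 2 it had 657 and 838 CPM in G1, 440 and 711 CPM in S, and 325 and 553 CPM in G2/M. On each plate, the lowest values were those of low PLIN2-GFP NSPCs outside G1.

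Within G1, 0 of 9 members were called by edgeR, beside 0.303% of all genes (0.274% lower), and 4 had an unadjusted p under 0.05. *Pgk1* went from 1090 to 819 CPM on plate 1 and from 841 to 594 CPM on plate 2 there (log2 fold change -0.46, standard error 0.13, adjusted p = 0.162). *Aldoa* went from 1256 to 1073 CPM and from 1247 to 895 CPM (log2 fold change -0.34, adjusted p = 0.314). For both genes the low category was higher on both plates. No member's difference between the effects in cycling cells and in G1 was called, 2 had an unadjusted p under 0.05, and 0.0288% of all genes were called. *Hk2* had too few counts for these fits.

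The authors' per-cell table divides the cells into clusters 0 and 1, of 155 and 149 cells, in which high PLIN2-GFP NSPCs make up 65.2% and 24.2%. As the clusters were made from the genes of these cells, their levels are given without a test. *Aldoc* was at 883 CPM in cluster 0 and 600.5 in cluster 1 on plate 1, and at 693 and 402 CPM on plate 2. *Hk2* was at 8.61 and 25.5 CPM on plate 1 and at 9.22 and 20.4 CPM on plate 2. *Pgk1* was at 777 and 1042 CPM, and at 575 and 644 CPM. *Aldoc* was thus higher and *Hk2* and *Pgk1* lower in the cluster that holds more high PLIN2-GFP NSPCs, while *Aldoa* was at 1001 and 1032 CPM on plate 1 and at 828 and 925 CPM on plate 2.

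Within cluster 0, *Aldoc* was at 832 CPM in low and 918 in high NSPCs of plate 1 and at 625 and 731 CPM on plate 2. Within cluster 1, it was at 633 and 570 CPM on plate 1 and at 385 and 484 CPM on plate 2, so high lay above low in 3 of 4 pairs. The *Aldoc* share of both aldolases was 41.9% and 48.5% in cluster 0 and 36.1% and 38.2% in cluster 1 on plate 1, and 43.1% and 46.5%, and 29.3% and 33.3%, on plate 2, with high above low in all 4 pairs. Of the 53 UMIs of *Hk2* in these sums, 32 came from low PLIN2-GFP NSPCs of cluster 1, at 33.9 and 24.7 CPM on plates 1 and 2, while the other combinations ranged from 6.20 to 12.5 CPM.

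**Figure D5:**
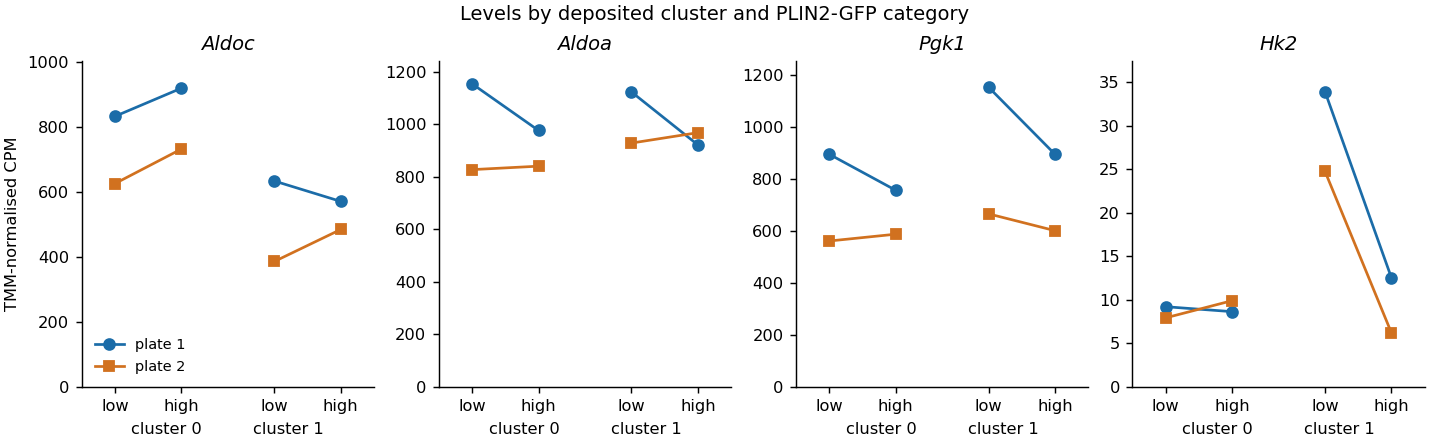
Levels (TMM-normalised CPM, linear axes from 0) of *Aldoc*, *Aldoa*, *Pgk1* and *Hk2* in low and high PLIN2-GFP NSPCs of the deposited clusters 0 and 1, with 1 line per plate. *Aldoc* is higher in cluster 0, at 625 to 918 CPM against 385 to 633 CPM in cluster 1, and *Hk2* stands apart in low cells of cluster 1, at 33.9 and 24.7 CPM.

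The spread among single cells was read in cells thinned to 5000 UMIs from the variance over the mean, which is 1 for random counting alone. For the same variation between cells, a lower mean brings the ratio nearer to 1. *Hk2*, with means of 0.027 to 0.14 UMIs per cell, thus gives little measure of its variation. Likewise *Tpi1* at 1.20 and *Ldhb* at 1.35 cannot be ranked against the more abundant members (values are means over the 4 combinations of plate and category). The ratio was 1.83 for *Aldoa*, 1.85 for *Aldoc*, 1.91 for *Pkm*, 2.03 for *Pgk1* and 1.82 for *Ldha*. The highest values were those of *Eno1* at 2.60 and of *Gapdh* at 5.33, whose reads are shared with near copies. *Hk2* had at least 1 UMI in 16.8% and 18.1% of low cells and in 11.9% and 9.43% of high cells of plates 1 and 2, although high cells were deeper. In thinned cells these shares were 13.9% and 12.5% against 2.74% and 6.0%. No cell type that lacks these genes was sequenced beside the NSPCs, so a background share of cells cannot be given.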

How the data were processed

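SORT-seq libraries were assigned by the authors with Salmon and alevin to GRCm38 (versions and annotation release not given in the sources used here), and cells were kept on mitochondrial share and doublet detection. The deposited values are estimated counts (expected counts, UMIs divided between genes) without normalisation, with totals of 801933 to 1029023 on plate 1 and 778022 to 857262 on plate 2 per category. The authors' per-cell table gives counts and scores, mitochondrial shares as a fraction and a percent, plate, category, phase and cluster, and was joined to the 304 count columns by equal UMI and gene numbers, with 0 left over. Although the study states a limit of 20%, 11 cells were at or above it.

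Sums per plate and group were rounded and fitted in edgeR 4.0.16 (R 4.3.3) by quasi-likelihood, after TMM scaling and removal of weakly counted genes, with plate as blocking factor. Standard errors were derived from F as the size of the log2 fold change over its root. The number of the plate pairs sums of the same plate, whose deviations had correlations of 0.29 between categories and 0.18 to 0.21 between phases. The block leaves 1 residual degree of freedom between categories, 2 between phases and 3 for categories within phases, so the spread is borrowed from all genes. DESeq2 1.42.0 was an alternative, as were no block, other scalings and filters, thinned cells, cells under 20% mitochondrial counts and sums or plates left out. The fit was tested on simulated data. Near copies were sought with the last 400 bases of each transcript at 95% identity over 60 bases, coordinates are from GENCODE M21, and promoters from RefSeq. Genes named are the members, the called genes of the other lists or else the 3 most abundant, and the 5 most correlated. The copies summed into *Gapdh* and *Eno1* were added after the data were seen. Members and lists were chosen with earlier results of these data known. The result of 1 gene of the marker lists is not reported here.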

Additional observations from a re-analysis of the deposited data

How the results depend on the processing

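With 2 plates the calls rest on the pairing of sums by plate. Without the replicate block, 0 of the 10 members were called between PLIN2-GFP categories, 0 from G1 to S and 0 from G1 to G2/M, where the block gave 2, 5 and 6, and 0 were called in cycling cells, where it gave 1. Over all genes, the calls between categories went from 179 to 1. From G1 to S they went from 975 to 444, from G1 to G2/M from 1255 to 653, and in cycling cells from 88 to 9. With DESeq2 and the block, 0, 0 and 2 members were called in these 3 comparisons, beside 11, 207 and 317 of all genes. Between categories DESeq2 gave an adjusted p to 6 of the 10 members, so the other 4 could not be called. Thinned to 5000 UMIs, 1, 3 and 3 members were called, beside 85, 390 and 619 of all genes. With scaling to library size alone it was 1 between categories and 3 from G1 to S, beside 238 and 924 of all genes. At an adjusted p under 0.05, 1 member was called between categories, and when any of the 4 sums was left out, without the block, 0 to 1, the 1 being *Gapdh* without the high sum of plate 1 (log2 fold change -1.92, adjusted p = 0.0328). The *Aldoc* share rose by 13.2 points in thinned cells and by 11.7 as a mean over cells, and the *Hk2* share changed by -10.9 and -11.2 points. The *Ldhb* share rose by 7.02 ± 4.41 points in thinned cells (exact permutation p = 0.67, with 29.8% in high NSPCs of plate 2 below 30.7% in low ones of plate 1) and by 9.09 as a mean over cells. The cause of these changes was not tested. Of the 14 calls on members, 13 were made again with mitochondrially encoded genes left out, which was tried for 13 of them.

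Signs turned for several members, among them *Pgk1*, which had been called. Fits with 1 sum left out had no plate block, so the difference between plates enters them. Within single plates, *Pgk1* (-0.43 and -0.11), *Aldoa* (-0.24 and -0.06) and *Ldha* (-0.29 and -0.24) were below 0 on both. *Ldhb* was above 0 on both (0.086 and 0.38). Between categories, with 1 sum or plate left out, the log2 fold change ranged from -0.30 to 0.022 for *Aldoa*, -0.62 to 0.13 for *Pgk1*, -0.55 to 0.055 for *Ldha*, -0.16 to 0.095 for *Pkm*, -0.35 to 0.27 for *Eno1*, -0.38 to 0.85 for *Tpi1*, -0.19 to 0.77 for *Ldhb* and -2.26 to 0.35 for *Gapdh*. Library size alone gave *Pkm* 0.035 and *Eno1* 0.00073, and thinning gave *Tpi1* -0.0084. With its copies, *Gapdh* had -0.28 from G1 to S, -0.14 from G1 to G2/M and 0.14 from S to G2/M, and thinned -0.31 from G1 to G2/M. From S to G2/M, thinning gave *Eno1* 0.086, *Tpi1* 0.13 and *Ldhb* 0.18, library size alone gave *Ldha* -0.031, no filter on low counts gave *Pgk1* 0.0076 and no block gave *Ldhb* 0.0055. In thinned G1 cells *Eno1* had -0.14, *Tpi1* -0.10 and *Ldha* 0.041, in thinned cycling cells *Gapdh* had 0.53, and the difference of both effects for *Pgk1* was -0.087. With either plate left out, values have no test.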

Other observations

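Across cells, most members were weakly and positively correlated, and *Aldoc*, *Ldhb* and *Gapdh* had the lower values. Pearson's r between members was computed on log2(counts per 10000 UMIs of a cell + 1), within each plate and category, and means of the 4 values are given, as a description of cells that share depth and library. The highest were 0.49 between *Aldoa* and *Pkm* (0.18 to 0.64), 0.41 between *Pgk1* and *Ldha* (0.36 to 0.45) and 0.38 between *Tpi1* and *Ldha* (0.28 to 0.52). With *Aldoc*, *Aldoa* had 0.12 (-0.14 to 0.37), *Pgk1* 0.12 (-0.02 to 0.32) and *Eno1* 0.03 (-0.16 to 0.17). *Ldhb* had 0.011 with *Pgk1* and -0.046 with *Tpi1*, and *Gapdh* had -0.18 with *Pgk1*. Over the 45 pairs of members, 36 had a mean above 0 and 16 were above 0 in each of the 4 combinations, with a median of 0.11.

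Among the 2097 genes with at least 1 UMI per cell on average, those most like *Aldoc* were *Igfbp2*, an insulin-like growth factor binding protein (mean r 0.38), *Scd2*, a fatty acid desaturase (0.34), *Cd9*, a tetraspanin (0.32), *Atp1b2*, a subunit of the glial sodium pump (0.32), and *Slc6a11*, a glial GABA transporter (0.31). Those most like the sum of the other 9 members were *Vegfa* (0.49), the metallothionein *Mt1* (0.46), *Fam162a* (0.43), *Pgam1* (0.43) and *Mif* (0.37). The lists share no gene, as lists of 5 out of 2097 genes mostly would not by chance, so no difference can be read from this.

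Of the genes for pyruvate entry into mitochondria, 0 of 6 were called between PLIN2-GFP categories by edgeR (2 with an unadjusted p under 0.05), with a median log2 fold change of 0.33. DESeq2 also called 0, here and in the next list, but gave an adjusted p to 418 genes alone. The most abundant were *Pdhb* with -0.12 (adjusted p = 0.846), *Pdha1* with 0.40 (adjusted p = 0.401) and *Dlat* with 0.27 (adjusted p = 0.740). Of 14 tested genes of the pentose phosphate and glycogen branches, 0 were called between categories (0 with an unadjusted p under 0.05, and 0 called by DESeq2), whereas the glycogen phosphorylases *Pygb* and *Pygm* fell by 1.07 and 1.16 on the log2 scale from G1 to G2/M (adjusted p = 0.0486 and 0.0198 by edgeR).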
